A study of Mus musculus with 30 samples.

Results

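The 47 genes described here are the listed Wnt ligands, Frizzled and LRP receptors, beta-catenin pathway components, targets, secreted inhibitors and R-spondins, chosen by gene symbol from the 19737 genes of a whole-brain RNA-Seq table. All 47 were found by matching the table's Ensembl identifiers to mouse symbols. They comprised 13 Wnt ligands, 12 receptors (10 Frizzleds, Lrp5 and Lrp6), 7 cytoplasmic components, 4 nuclear TCF/LEF factors, 3 feedback targets, 5 secreted inhibitors and 3 R-spondins. Of these, 46 were tested, and Wnt8b was not, since its mean stayed under 10 normalized counts in every comparison.

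The libraries were made from whole brains of male C57BL/6N mice, 1 mouse per library and 5 libraries in each of 6 groups. Wild-type (WT) and Arid1b+/- (HT) mice were sampled at P10 without treatment. At P120, WT-Veh and HT-Veh mice had been nursed by dams drinking 0.2% saccharin, and WT-Flx and HT-Flx mice by dams drinking 0.1 mg/ml fluoxetine, a serotonin reuptake inhibitor, in 0.2% saccharin, from P3 to P21. HT mice carry 1 copy of a Cas9 nickase mutation in exon 5 of Arid1b, which encodes a subunit of the BAF chromatin-remodelling complex, in every cell, and come from a single mutant line. Fluoxetine reached the pups through the milk, so the dose each pup took was not measured. The values are DESeq2-normalized counts, scaled jointly over the 30 libraries, and their read depth is unknown.

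Arid1b itself separated the genotypes at P10, with normalized counts of 3271, 3281, 3292, 3309 and 3164 in WT and 2162, 2334, 2246, 2248 and 2180 in HT, replicates in order. At P120, 2 libraries went against their labels, and results resting on them are given with and without them where a call is lost. The WT-Veh libraries held 3171, 2320, 3036, 3224 and 3229, and the HT-Veh libraries 2342, 3361, 1973, 2480 and 2227, so that WT-Veh replicate 2 lay among the HT values and HT-Veh replicate 2 among the WT values. The HT-Veh against WT-Veh comparison uses replicates 1, 3, 4 and 5 of both groups, the libraries listed beside the study's own gene values for it, although its legends give 5 mice a group, and all 10 libraries are an alternative. In WT-Flx, Arid1b held 3392, 3305, 3166, 2961 and 2963, and in HT-Flx 2164, 2554, 2171, 2616 and 2356, with no overlap. Arid1b was lower in HT by a log2 fold change of −0.55 (SE 0.036, adjusted p = 1.52e-05) at P10 and −0.41 (SE 0.082, adjusted p = 0.000801) between the fluoxetine groups. Between all 10 vehicle libraries it was −0.29 (SE 0.15, adjusted p = 0.991). It was −0.49 over the 8 libraries, a description only, since the libraries left out are those at the other genotype's Arid1b level.

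The libraries also differed in how their values moved with the GC content of the transcript. The slope against the mean library, in log2 units per 10 percentage points of GC, ran from −0.46 to −0.24 at P10, from −0.13 to 0.34 in WT-Veh, from −0.25 to 0.57 in HT-Veh, from −0.27 to −0.17 in WT-Flx and from 0.43 to 0.85 in HT-Flx. Summed normalized counts ran from 31578614 to 35542279 in the P10, WT-Veh and WT-Flx libraries, from 33200684 to 41801037 in HT-Veh and from 37083545 to 41522113 in HT-Flx. Differences are given as deposited, and many of them also after a per-library correction for both GC content and length.

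Wnt proteins are secreted lipid-modified ligands that bind a Frizzled receptor together with Lrp5 or Lrp6. In the canonical branch, receptor binding acts through Dishevelled (Dvl) proteins on a destruction complex of Apc, Axin and Gsk3b, which otherwise marks beta-catenin (Ctnnb1) for degradation, and stabilized beta-catenin enters the nucleus and works with TCF/LEF factors. In the brain, the pathway is known for patterning, progenitor division, axon and synapse formation, oligodendrocyte maturation and the formation of brain vessels. Axin2, Nkd1 and Notum are induced by the pathway and restrain it, so their transcripts are often read as its output.

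RefSeq promoter sequences (GRCm38.p6, 250 bases before each start) were matched for 31 of the 47 genes, with 40 starts. They were searched on both strands for the letters of TCF/LEF sites, CTTTG followed by AA, AT, TA or TT, forms that cannot share a position on 1 strand. Of 32851 promoters of the same length, 14.8% held at least 1 match, against 5 of the 40 member promoters (12.5%), in Wnt5b, Wnt11, Fzd7, Lef1 and Tcf7l2. Those shown here belong to the feedback targets Axin2 and Nkd1, of which Nkd1 fell with age and Axin2 did not pass the test, to the factors Tcf7l2 and Lef1, and to Sfrp5, the member with the greatest rise. Each is written 5′ to 3′ on the strand of its gene, in lower case, with matched letters in capitals.
Axin2, chr11:108920099-108920348 (+): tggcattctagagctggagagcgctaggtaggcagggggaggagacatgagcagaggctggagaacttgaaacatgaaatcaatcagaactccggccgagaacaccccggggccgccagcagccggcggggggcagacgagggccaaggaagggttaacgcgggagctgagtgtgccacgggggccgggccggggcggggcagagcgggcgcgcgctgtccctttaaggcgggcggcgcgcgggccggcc
Nkd1, chr8:88527383-88527632 (+): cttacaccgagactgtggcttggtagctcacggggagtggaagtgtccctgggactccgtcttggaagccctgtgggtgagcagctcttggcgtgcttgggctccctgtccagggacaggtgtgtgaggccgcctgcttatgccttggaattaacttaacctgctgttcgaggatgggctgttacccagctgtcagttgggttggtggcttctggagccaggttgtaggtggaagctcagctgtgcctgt
Tcf7l2, upstream start, chr19:55741560-55741809 (+): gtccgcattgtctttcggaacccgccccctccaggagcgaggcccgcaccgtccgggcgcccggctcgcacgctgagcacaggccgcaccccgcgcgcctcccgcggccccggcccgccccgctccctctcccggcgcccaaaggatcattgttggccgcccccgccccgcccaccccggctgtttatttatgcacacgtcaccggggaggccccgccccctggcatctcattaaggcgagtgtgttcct
Tcf7l2, downstream start, chr19:55895071-55895320 (+): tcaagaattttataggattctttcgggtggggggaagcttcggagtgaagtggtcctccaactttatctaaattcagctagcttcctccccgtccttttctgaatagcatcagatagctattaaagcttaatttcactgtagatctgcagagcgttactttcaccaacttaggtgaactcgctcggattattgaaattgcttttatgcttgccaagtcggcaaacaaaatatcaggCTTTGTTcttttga
Lef1, most downstream start, chr3:131156044-131156293 (+): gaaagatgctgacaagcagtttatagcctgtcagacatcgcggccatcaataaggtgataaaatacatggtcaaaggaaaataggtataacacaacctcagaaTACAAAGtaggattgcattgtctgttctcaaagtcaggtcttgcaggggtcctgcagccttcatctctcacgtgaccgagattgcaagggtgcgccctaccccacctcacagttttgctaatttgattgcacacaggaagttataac
Sfrp5, chr19:42202253-42202502 (−): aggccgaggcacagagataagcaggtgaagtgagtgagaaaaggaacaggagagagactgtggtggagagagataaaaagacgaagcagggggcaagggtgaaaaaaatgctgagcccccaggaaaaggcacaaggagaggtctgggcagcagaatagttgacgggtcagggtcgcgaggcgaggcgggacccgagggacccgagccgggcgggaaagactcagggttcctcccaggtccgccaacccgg
The upstream Tcf7l2 window had a GC content of 72.8% and no match, while the downstream one, inside the gene, had 40.8% and 1 match. Of 4 Lef1 windows, the most downstream one is shown because it held the only match, and the other 3 held none. The Axin2, Nkd1 and Sfrp5 windows held none of the letters searched. The Nkd1 window also lay inside the gene, whose annotated start is chr8:88521354, and the bases before that start were not searched.

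The first question was how the pathway differed between the P10 and P120 brain. The secreted inhibitors moved in both directions, with Sfrp5 and Dkk3 higher and Sfrp1, Sfrp2 and Wif1 lower at P120 in both genotypes. Apc, Ctnnb1, Gsk3b, Dvl3 and 3 of the 4 TCF/LEF genes were lower, Dvl1 and several ligands were higher, and Axin2 and Lef1 did not pass the test. In WT (WT-Veh against P10), 16 of the 46 tested members were higher and 15 lower at an adjusted p under 0.05, or 67.4%, beside 58.3% of all 17927 genes tested (28.9% higher and 29.4% lower). In HT, 16 were higher and 15 lower, beside 51.1% of 17989 genes (25.8% higher and 25.3% lower). The members' median log2 fold change was 0.07 in WT and 0.01 in HT, against −0.01 and −0.02 over all genes.

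These shares are of the same order as the background, so it is the identity and direction of the members that the comparisons describe. The lists shared 29 genes, 93.5% of each, 14 higher and 15 lower in both genotypes, from mice that entered only 1 of the comparisons. The matching share over all genes was not computed, so the sharing is not shown to be particular to the members. Groups did not overlap for 24 members in WT (9 wholly higher, 15 wholly lower, beside 45.6% of all genes) and for 24 in HT (10 and 14, beside 40.2%). Without WT-Veh replicate 2, 33 members passed in WT, beside 10056 genes, and the members gained are not named here. Without HT-Veh replicate 2, 28 members passed in HT, beside 8221 genes. The P10 and P120 samples carry different library series in their column names, and only the P120 mice had dams on saccharin. Age, vehicle and library series therefore cannot be told apart.

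**Figure D1:**
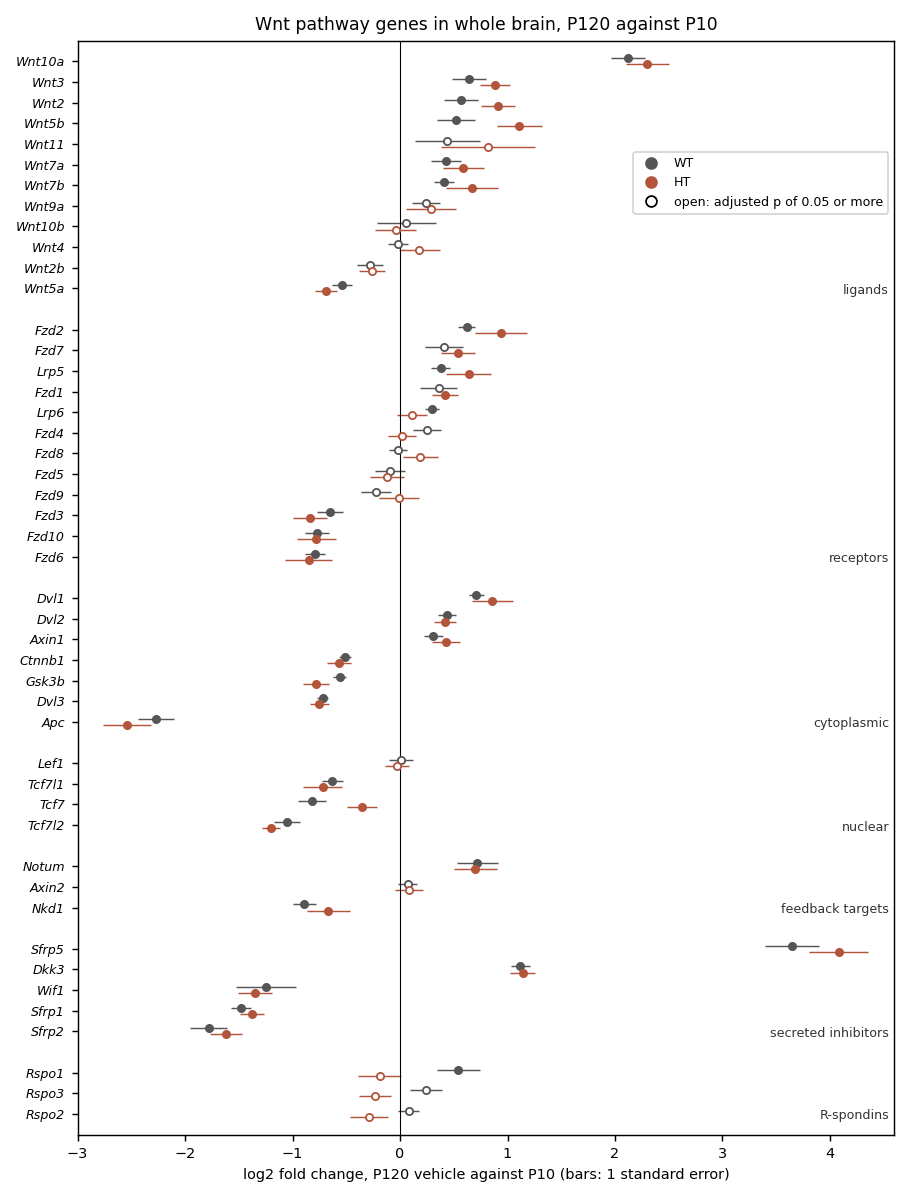
Log2 fold changes of the 46 tested members between P120 vehicle and P10 brain, by role, in WT (grey) and HT (red) with 1 standard error, and filled points for an adjusted p under 0.05. Sfrp5 lies furthest to the right at 3.65 in WT and 4.08 in HT, Apc furthest to the left at −2.27 and −2.54, and Axin2 and Lef1 lie near 0.

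Secreted inhibitors sequester Wnt proteins (the Sfrp family and Wif1) or, in the case of Dkk3, belong to a family that acts at Lrp receptors. Sfrp5 (chr19:42197971-42202252, minus strand) had normalized counts of 29.8, 14.8, 35.1, 25.8 and 26.5 at P10 and 209, 302, 472, 451 and 291 at P120 in WT. In HT it had 14.7, 22.3, 34.8, 23.1 and 21.2 at P10 and 493, 413, 647, 307 and 240 at P120. Every P120 library was several times above every P10 library, and the log2 fold change was 3.65 (SE 0.25, adjusted p = 1.08e-07) in WT, or 12.5-fold on the log2(value + 1) scale, and 4.08 (SE 0.27, adjusted p = 1.82e-07) in HT. Dkk3 (chr7:112116017-112159057, minus strand) rose from 3028, 2976, 2858, 2913 and 2919 to 7606, 7427, 5637, 5689 and 5947 in WT, and from 3159, 3042, 2881, 3006 and 2879 to 8122, 5599, 5694, 7137 and 6675 in HT. Every P120 library was above every P10 library, with log2 fold changes of 1.12 (SE 0.089, adjusted p = 3.34e-07) and 1.14 (SE 0.12, adjusted p = 6.01e-06).

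The other 3 inhibitors fell. Sfrp2 (chr3:83766321-83774316) had 375, 295, 312, 348 and 278 at P10 and 59.0, 90.6, 111, 113 and 99.2 at P120 in WT, and 322, 303, 314, 317 and 333 and 135, 81.5, 116, 107 and 84.6 in HT. Sfrp1 (chr8:23411502-23449632) had 955, 776, 879, 972 and 770 and 296, 280, 317, 360 and 301 in WT, and 797, 807, 765, 882 and 750 and 290, 372, 269, 298 and 310 in HT. Neither gene had overlapping ages in either genotype, and the log2 fold changes were −1.78 (adjusted p = 1.59e-06) and −1.62 (adjusted p = 2.61e-06) for Sfrp2 and −1.48 (adjusted p = 6.07e-08) and −1.38 (adjusted p = 9.2e-07) for Sfrp1, in WT and HT in turn. Wif1 (chr10:121033960-121100650) had 139, 84.2, 112, 95.8 and 126 at P10 and 22.5, 38.8, 44.9, 67.3 and 72.8 at P120 in WT, and 124, 105, 100, 104 and 119 and 42.3, 41.8, 54.3, 39.5 and 36.7 in HT. Its WT-Veh libraries were the more spread, and the log2 fold changes were −1.25 (SE 0.28, adjusted p = 0.00180) and −1.35 (SE 0.16, adjusted p = 1.66e-05).

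Apc, a component of the destruction complex, fell more than any other member. Apc (chr18:34220924-34322552) held 33149, 34325, 35134, 35344 and 33510 normalized counts at P10 in WT and 10576, 7762, 4459, 6205 and 8118 in WT-Veh. In HT it held 39621, 35480, 33616, 34252 and 35677 at P10 and 3563, 5526, 5518, 9634 and 8235 in HT-Veh. Within each P10 group the Apc libraries were close together, while within each P120 vehicle group the highest was more than double the lowest. The log2 fold changes were −2.27 (SE 0.17, adjusted p = 2.21e-07) in WT and −2.54 (SE 0.22, adjusted p = 1.27e-06) in HT, or 4.81-fold and 5.82-fold lower. After the correction for GC content and length they were −1.99 and −2.07.

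Beta-catenin and its kinase fell to a smaller degree. Ctnnb1 (chr9:120929216-120960507), the most abundant member per kilobase of transcript, had 22179, 22267, 22032, 22857 and 22216 at P10 and 15453, 14575, 15272, 17234 and 15781 at P120 in WT, and 22292, 22463, 21962, 23410 and 22658 and 14468, 14988, 12733, 17890 and 16188 in HT. Its log2 fold changes were −0.51 (adjusted p = 6.59e-06) in WT and −0.57 (adjusted p = 0.000763) in HT, and no P120 library reached a P10 library. Gsk3b, the kinase that phosphorylates beta-catenin, fell by a log2 fold change of −0.56 and −0.78. The Dishevelled genes went different ways, with Dvl1 at 0.71 (adjusted p = 2.29e-06) and 0.86 (adjusted p = 0.00207), Dvl2 at 0.44 and 0.42, and Dvl3 at −0.72 (adjusted p = 1.52e-07) and −0.75 (adjusted p = 2.27e-05). Axin1, the constitutive scaffold, was at 0.31 (adjusted p = 0.00879) and 0.43 (adjusted p = 0.0144), and after the correction at 0.03 and 0.03, where it no longer passed.

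Among the nuclear factors, Tcf7l2 (chr19:55741820-55933654), a factor known for oligodendrocyte differentiation and thalamic neurons, held 1968, 1854, 2055, 2038 and 1649 at P10 and 740, 772, 1024, 1161 and 973 at P120 in WT. In HT it held 2021, 2018, 2181, 2142 and 2096 and 947, 879, 925, 908 and 895. It halved in both genotypes, with log2 fold changes of −1.05 (SE 0.12, adjusted p = 8.12e-06) and −1.20 (SE 0.087, adjusted p = 3.59e-07). Tcf7l1, mainly a repressor, was lower by −0.63 and −0.72, and Tcf7 by −0.82 (adjusted p = 9.72e-05) and −0.35 (adjusted p = 0.0472). The HT call of Tcf7 was lost without any 1 of the libraries other than HT-Veh replicate 1 (adjusted p between 0.0564 and 0.0943), and without HT-Veh replicate 2 the log2 fold change was −0.35 (adjusted p = 0.0706).

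Lef1, the remaining factor, did not pass in either genotype. Lef1 (chr3:131110471-131224356) held 309, 339, 361, 285 and 358 at P10 and 351, 277, 400, 346 and 298 at P120 in WT, and 326, 293, 307, 333 and 289 and 324, 298, 334, 258 and 304 in HT. The ages overlapped throughout, at log2 fold changes of 0.01 (SE 0.11, adjusted p = 0.937) and −0.03 (SE 0.11, adjusted p = 0.824). Over the 30 libraries, the genes outside the pathway lists whose log2 values followed Lef1 most closely were Tmem102 (Pearson's r 0.62), Kti12 (0.619) and Gm13889 (0.617), given as a description over libraries that share group and depth.

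Of the 3 feedback targets, Nkd1 fell, Notum rose and Axin2 did not pass. Axin2 (chr11:108920349-108950783) held 1050, 1084, 1052, 990 and 1027 at P10 and 1102, 1254, 1179, 1074 and 872 at P120 in WT, and 1180, 1034, 1087, 973 and 888 and 1281, 1168, 1132, 848 and 1051 in HT, with overlapping ages and log2 fold changes of 0.07 (SE 0.09, adjusted p = 0.555) and 0.08 (SE 0.13, adjusted p = 0.622). Nkd1, which binds Dishevelled, fell from 1325 ± 75.0 to 722 ± 131 in WT (SD, n = 5) and from 1177 ± 152 to 767 ± 243 in HT, at −0.89 (adjusted p = 1.86e-05) and −0.67 (adjusted p = 0.0121). Notum, an enzyme that removes the lipid from Wnt proteins, rose from 100 ± 10.5 to 170 ± 45.7 and from 114 ± 9.26 to 194 ± 63.2, at 0.72 (adjusted p = 0.00490) and 0.70 (adjusted p = 0.0110). After the correction its HT difference was 0.32 (adjusted p = 0.0580).

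**Figure D2:**
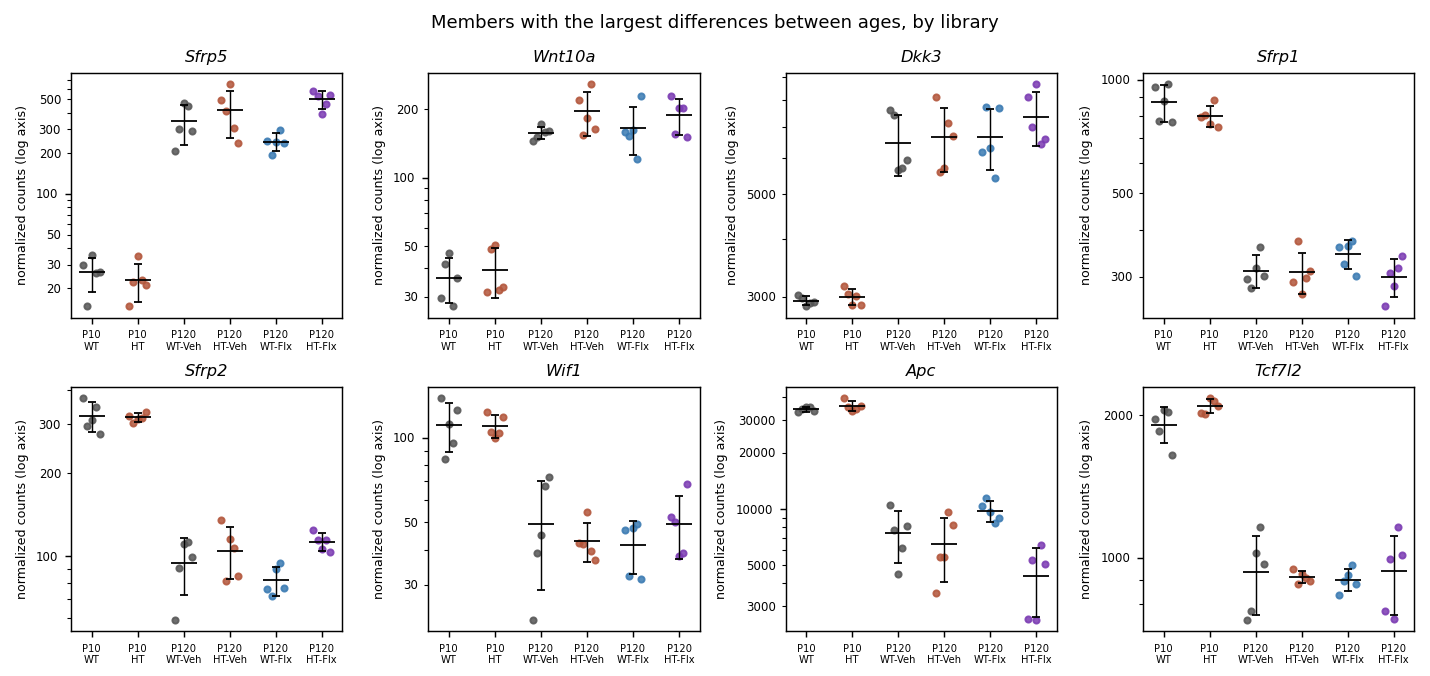
Normalized counts on a log axis of the 8 members with the largest age differences, 1 point per library, with the mean and 1 SD of each group. The P10 and vehicle P120 libraries of each gene do not overlap in either genotype, with Sfrp5, Wnt10a and Dkk3 higher at P120 and the other 5 lower.

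Of the ligands, Wnt10a (chr1:74791516-74804179) rose most, from 29.5, 41.9, 46.8, 27.2 and 36.3 at P10 to 146, 152, 173, 160 and 161 at P120 in WT. In HT it went from 31.4, 48.8, 50.9, 32.1 and 33.2 to 220, 154, 183, 258 and 164. The lowest P120 library was well above the highest P10 library, and the log2 fold changes were 2.12 (SE 0.16, adjusted p = 2.16e-07) and 2.30 (SE 0.2, adjusted p = 1.6e-06). Wnt2, Wnt3, Wnt5b, Wnt7a and Wnt7b were also higher in both genotypes, with WT log2 fold changes from 0.41 to 0.64 and HT ones from 0.59 to 1.11. The Wnt7a call was lost without WT-Veh replicate 4 (0.34, adjusted p = 0.0566) and without P10 HT replicate 1 (0.52, adjusted p = 0.0572), the Wnt5b call in WT without P10 WT replicate 2, 4 or 5 or WT-Veh replicate 4 (adjusted p between 0.0509 and 0.0611), and the Wnt7b call in HT without P10 HT replicate 1 or 5 or HT-Veh replicate 1, 2 or 3 (between 0.0576 and 0.0793). After the correction, Wnt7a in both genotypes and Wnt5b in WT did not pass. Wnt5a, a ligand known for the beta-catenin-independent branch, was the only ligand lower in both, from 572 ± 22.4 to 395 ± 49.6 in WT and from 613 ± 22.9 to 381 ± 31.9 in HT, at −0.54 (adjusted p = 0.000262) and −0.69 (adjusted p = 0.000116). Wnt2b, Wnt4, Wnt9a, Wnt10b and Wnt11 did not pass in either genotype, with log2 fold changes between −0.28 and 0.82. Wnt8b, at 0 to 14.9 normalized counts in the 30 libraries, was too low to test.

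Per kilobase of transcript, averaged over the 6 groups, Wnt7b (488) and Wnt7a (299) had the highest ligand levels and Wnt11 (9.33) and Wnt8b (1.94) the lowest. Of the receptors, Fzd1 (256) and Fzd3 (255) led and Fzd5 (16.6) was last. Dkk3 (1640) was far above the other inhibitors (29.5 to 137).

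Receptor levels also split. Fzd2 rose at 0.62 (adjusted p = 2.68e-05) and 0.94 (adjusted p = 0.00541) and Lrp5, a co-receptor, at 0.38 (adjusted p = 0.00242) and 0.64 (adjusted p = 0.0212), with Lrp5 losing its call after the correction in both genotypes, and in HT without P10 HT replicate 1 (0.57, adjusted p = 0.0550) or HT-Veh replicate 2 (0.59, adjusted p = 0.0522). Fzd3, known for axon tract formation, fell from 4381 ± 117 to 2830 ± 533 in WT and from 4516 ± 336 to 2587 ± 689 in HT, at −0.65 and −0.84. Fzd6 (−0.79 and −0.85) and Fzd10 (−0.77 and −0.78) were lower as well. Lrp6 passed in WT, at 0.30 (adjusted p = 0.00163), and not in HT, at 0.11 (adjusted p = 0.510), while after the correction it passed in both (0.57 and 0.59). Fzd1 and Fzd7 passed in HT (0.42 and 0.54) but not in WT (0.36 and 0.41). Fzd4, Fzd5, Fzd8 and Fzd9 did not pass in either. The R-spondins, which raise receptor levels by clearing the ubiquitin ligases Znrf3 and Rnf43, gave 1 call in 6 tests, Rspo1 in WT at 0.54 (adjusted p = 0.0302), lost without WT-Veh replicate 1 or 2 or P10 WT replicate 4 or 5 (adjusted p between 0.0695 and 0.0786) and after the correction.

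The genotype by age term, which tests whether the age difference was unlike in WT and HT, passed for 0 of 46 members and 0 of 17978 genes. At an unadjusted p under 0.05 it gave 4 members (Wnt5b, Tcf7, Rspo1 and Rspo3) and 612 genes (3.40%), or 2 members (Tcf7 and Rspo1) and 850 genes after the correction, and without an intensity trend it called 2 genes and no member. The differences between WT and HT in Lrp6, Fzd1, Fzd7 and Rspo1 are therefore not shown to be differences between genotypes. After the correction for GC content and length, 32 members passed in WT (14 higher, 18 lower), beside 10695 of 17927 genes. In HT, 30 passed (12 higher, 18 lower), beside 10066 of 17989 genes. With and without the correction, 23 members passed in the same direction in both genotypes, and the matching count over all genes was not made. The 8 higher were Wnt2, Wnt3, Wnt7b, Wnt10a, Fzd2, Dvl1, Dkk3 and Sfrp5, and the 15 lower were Wnt5a, Fzd3, Fzd6, Fzd10, Dvl3, Ctnnb1, Apc, Gsk3b, Tcf7, Tcf7l1, Tcf7l2, Nkd1, Sfrp1, Sfrp2 and Wif1.

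In bulk tissue, fewer cells of a type and less RNA per cell cannot be told apart, and cell type markers moved with age. All 6 dividing-cell markers were lower at P120 in both genotypes, with summed normalized counts of 2475 to 3740 in P10 WT and 92.1 to 183 in WT-Veh, and 2099 to 3083 in P10 HT and 89.9 to 195 in HT-Veh. All 7 immature neuron markers were lower (44606 to 62274 against 18217 to 23192 in WT, and 45909 to 57996 against 18649 to 27191 in HT). Of the 8 choroid plexus markers, 5 were higher and 1 lower in WT (11886 to 16242 against 23204 to 34641), and 6 higher and 1 lower in HT (7526 to 12705 against 24806 to 38860). Of 5 oligodendrocyte precursor markers, 4 were lower in WT (18706 to 22115 against 9448 to 12942), and 3 lower and 1 higher in HT (13836 to 19570 against 10097 to 13179). Of the 6 pericyte and mural markers, 4 were lower and 1 higher in WT (7504 to 8212 against 3718 to 4284), and 3 lower in HT (7207 to 7519 against 3391 to 4314). Of 8 endothelial markers, 6 were lower and 2 higher in WT (8945 to 9624 against 7526 to 8981), and 3 lower and 2 higher in HT (8333 to 9297 against 7036 to 8770). Of 7 mature oligodendrocyte markers, 4 were higher in WT (115773 to 228688 against 163213 to 241565) and 5 in HT (86284 to 166596 against 183887 to 227504). Over all 15 marker lists, the summed levels of the ages did not overlap for 5 lists lower and 2 higher at P120 in WT, and for 4 lower and 7 higher in HT. Endothelial sums overlapped in both genotypes, and mature oligodendrocyte sums overlapped in WT. Of lists without values here, ependyma was wholly higher in both genotypes, and meninges and fibroblast wholly lower in WT. Neuron, microglia, thalamus and habenula, and cerebellar granule cell sums were wholly higher in HT. A single cerebellar granule cell marker was at 0 throughout WT-Veh. No other marker of the lists named here was at 0 throughout a P10 or vehicle group. The part of the markers in the members' differences was not tested.

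The second question was what Arid1b heterozygosity did to the pathway at P10. None of the 46 members passed between HT and WT, beside 4 of 17896 genes (0.0224%), and the smallest adjusted p of a member was 0.331. Member log2 fold changes ran from −0.47 to 0.37, with a median of −0.02 against −0.01 for all genes. At an unadjusted p under 0.05 there were 4 members, beside 2249 genes (12.6%). No member's groups were apart, beside 3.12% of all genes. The 4, none of which had an unadjusted p under 0.05 after the correction (0 members and 2102 genes), were Tcf7 (−0.27), Wnt5b (−0.47), Nkd1 (−0.18) and Tcf7l2 (0.13). After the correction they were at −0.22, −0.42, −0.12 and 0.11. The summed level of the 5 blood markers was the only one of the 15 marker lists that did not overlap at P10, at 5258 to 8444 in HT and 10377 to 13112 in WT, and its part was not tested.

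Ctnnb1, Axin2 and Lef1 were close between genotypes at P10. Ctnnb1 had 22032 to 22857 normalized counts in WT and 21962 to 23410 in HT, a log2 fold change of 0.02 (SE 0.031, exact two-sided permutation p = 0.413). Axin2 differed by −0.02 (exact permutation p = 0.841) and Lef1 by −0.09 (exact permutation p = 0.262). With 5 against 5, the smallest p such a test can give is 0.00794. Of the other feedback targets, Nkd1 was at 1177 ± 152 in HT against 1325 ± 75.0 in WT (SD, n = 5), and Notum at 114 ± 9.26 against 100 ± 10.5. Tcf7l2 was the one of the 4 genes named above that was higher in HT, at 2092 ± 72.5 against 1913 ± 167 in WT (SD, n = 5), and its groups overlapped. Tcf7 was at 167, 156, 144, 164 and 161 in HT and 226, 173, 199, 163 and 200 in WT, with HT replicates 2, 3 and 5 below every WT library and the groups overlapping.

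At P120 the vehicle groups likewise gave no member. With the 4 libraries of each group that kept to their labels, 0 of 46 members and 0 of 17784 genes (0%) passed in limma, and 1 member and 229 genes (1.29%) had an unadjusted p under 0.05. With all 10 libraries the counts were 0 members and 0 genes, with 0 members and 203 genes at an unadjusted p under 0.05. The member was Fzd4, a receptor known for retinal and brain vessel growth, at 395, 345, 427 and 434 in HT-Veh, against 483, 561, 534 and 673 in WT-Veh for replicates 1, 3, 4 and 5. Fzd4 was lower in each of these HT-Veh libraries, by a log2 fold change of −0.49 (SE 0.16, adjusted p = 1.000) and at an exact permutation p of 0.0286, the smallest that 4 against 4 can give. Over these libraries it was the only member of 46 whose groups did not overlap, beside 1.04% of all genes, and after the correction it was at −0.34. Replicate 2, left out here, was at 549 in HT-Veh and 373 in WT-Veh, so that over all 10 libraries the Fzd4 groups overlapped.

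Ctnnb1, Axin2, Lef1 and Tcf7l2 overlapped between the vehicle groups, at log2 fold changes of −0.07, 0.02, −0.19 and −0.07. Dvl1 and Wnt7b showed how spread HT-Veh was. Dvl1 held 7804, 7117, 9411, 4512 and 5055 in HT-Veh against 5487, 6586, 6761, 6377 and 5687 in WT-Veh, and Wnt7b held 2276, 2205, 3239, 1262 and 1250 against 1575, 1873, 1687, 1814 and 1388. For both, HT-Veh replicates 4 and 5 were below every WT-Veh library and HT-Veh replicates 1, 2 and 3 above every one. The same libraries differed in GC slope, at 0.57, 0.27 and 0.35 in HT-Veh replicates 1, 2 and 3 and −0.25 and −0.19 in replicates 4 and 5. The part of the GC slope in this spread was not tested.

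The third question was what early fluoxetine left behind at P120 in each genotype. In HT (HT-Flx against HT-Veh), 0 of 46 members and 0 of 17676 genes (0%) passed in limma, with 5 members and 4082 genes (23.1%) at an unadjusted p under 0.05. The members were Tcf7l1 (0.59), Nkd1 (0.52), Wnt7a (0.47), Wnt3 (0.34) and Fzd3 (−0.51), all at an adjusted p of 0.215. After the correction they were at 0.22, 0.27, 0.20, 0.18 and 0.10, Fzd3 with its direction turned, and none of the 5 had an unadjusted p under 0.05. Then 1 member, Ctnnb1 (−0.26 (adjusted p = 0.440)), and 2001 genes did. Tcf7l1 held 261, 260, 196, 284 and 250 in HT-Flx, against 157, 195, 236, 118 and 143 in HT-Veh, with 4 HT-Flx libraries above every HT-Veh library. No member's groups were apart, beside 1.62% of all genes, and Ctnnb1 (−0.19), Axin2 (0.30), Lef1 (0.20) and Tcf7l2 (0.02) did not pass.

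In WT (WT-Flx against WT-Veh), 0 of 46 members and 0 of 17865 genes (0%) passed in limma, with 8 members and 4504 genes (25.2%) at an unadjusted p under 0.05. Wnt7b, a ligand known for vessel and dendrite growth, held 1139, 1115, 1011, 1125 and 1204 in WT-Flx and 1575, 1873, 1687, 1814 and 1388 in WT-Veh. Dvl1 held 4653, 4524, 4443, 4986 and 4748 and 5487, 6586, 6761, 6377 and 5687, and Fzd10 96.8, 95.3, 87.0, 81.6 and 72.7 and 107, 106, 107, 131 and 107. Each of the 3 was lower in every WT-Flx library, beside 6.41% of all genes with groups apart, at log2 fold changes of −0.57 (adjusted p = 0.0849), −0.40 (adjusted p = 0.0849) and −0.36 (adjusted p = 0.125). After the correction these were −0.30, −0.13 and −0.14.

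The count in WT turned on the vehicle libraries. Without WT-Veh replicate 1, Wnt7b (−0.59), Dvl1 (−0.44), Wnt7a (−0.65) and Apc (0.59) passed among 1400 genes, and without WT-Veh replicate 5, Wnt7b (−0.63) and Dvl1 (−0.43) passed among 624. With all 10 libraries, the other members at an unadjusted p under 0.05 were Wnt7a (−0.51), Fzd2 (−0.37), Lrp5 (−0.28), Sfrp5 (−0.45) and Apc (0.45). After the correction, Wnt7b, Dvl1 and Tcf7 (0.33) and 1876 genes had an unadjusted p under 0.05. Ctnnb1 (0.05), Axin2 (−0.13), Lef1 (−0.15) and Tcf7l2 (−0.04) did not pass.

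**Figure D3:**
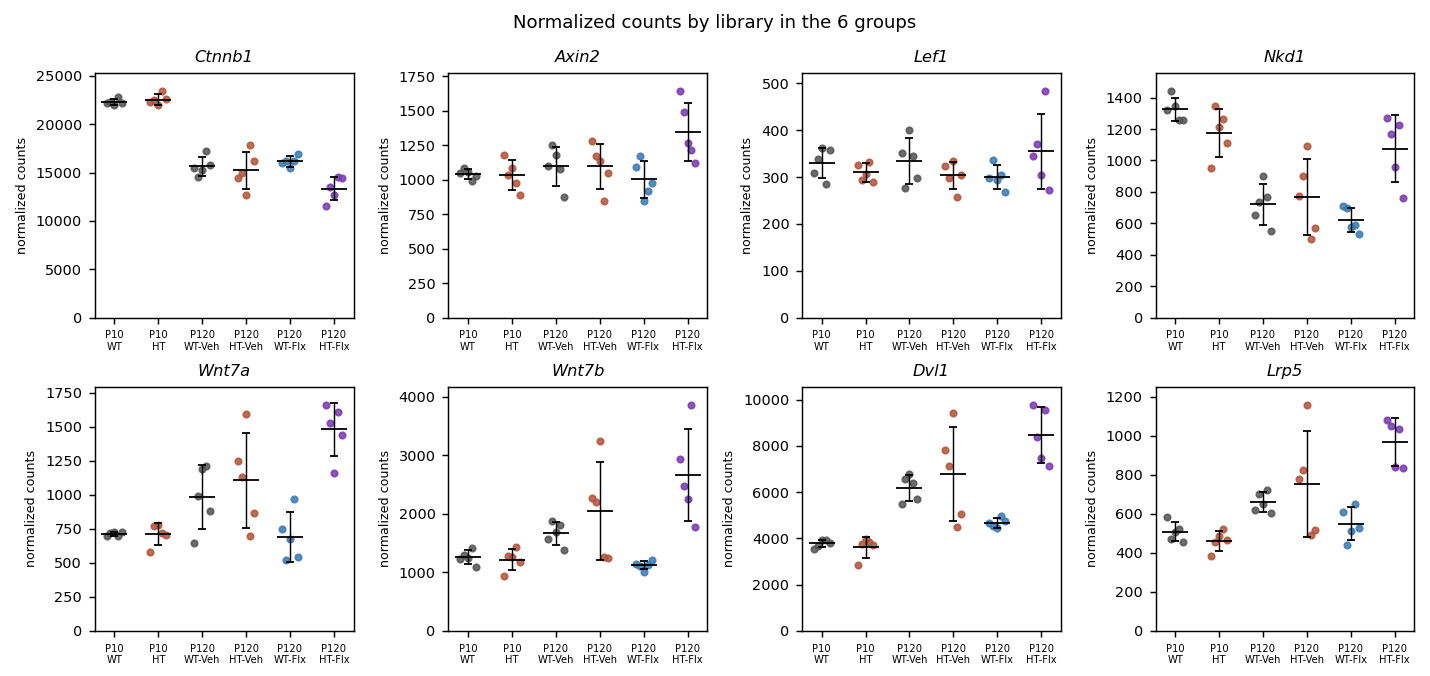
Normalized counts of Ctnnb1, Axin2, Lef1, Nkd1, Wnt7a, Wnt7b, Dvl1 and Lrp5 in the 6 groups, 1 point per library, with the mean and 1 SD. Ctnnb1 is highest at P10, Lef1 overlaps across all groups, and the HT-Flx libraries of Wnt7a, Wnt7b, Dvl1 and Lrp5 lie above every WT-Flx library, while HT-Veh is spread.

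The groups that differed were the fluoxetine-treated ones. Between HT-Flx and WT-Flx, 30 of 46 members passed, 22 higher and 8 lower in HT-Flx, or 65.2%. Over all genes, 11330 of 17799 passed (63.7%, with 33.1% higher and 30.5% lower), so the members' share is that of the table as a whole. The members' median log2 fold change was 0.27 against 0.02 for all genes. The 22 higher members had a median transcript GC content of 56.6% and the 8 lower ones 46.6%, beside 55.6% and 44.1% for all genes higher and lower, and the GC slopes were 0.43 to 0.85 in HT-Flx against −0.27 to −0.17 in WT-Flx. Groups did not overlap for 20 members (15 wholly higher, 5 wholly lower), beside 48.5% of all genes.

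Cell type markers also differed between HT-Flx and WT-Flx. Of the 15 marker lists, 5 had summed normalized counts wholly higher in HT-Flx and 2 wholly lower, given here with the markers that passed the test. The higher ones were those of immature neurons (25091 to 30844 against 17879 to 19586 in WT-Flx, with 1 of 7 markers higher and 2 lower), oligodendrocyte precursors (11932 to 14342 against 9591 to 10723, 3 of 5 higher and 1 lower), mature oligodendrocytes (223191 to 250620 against 168088 to 222525, 2 of 7 higher and 2 lower), meninges and fibroblasts (4523 to 4905 against 2809 to 3933, 4 of 7 higher and 1 lower) and ependyma (1210 to 1642 against 614 to 878, 1 of 5 higher). The lower ones were those of astrocytes (62745 to 97419 against 103450 to 115718, 2 of 6 higher and 4 lower) and dividing cells (90.2 to 108 against 133 to 214, 2 of 5 tested lower). None of these markers was at 0 throughout either group, and their part in the members' differences was not tested. The sums are as deposited, without the correction for GC content and length, in groups whose GC slopes did not overlap. In the vehicle and the fluoxetine comparisons within a genotype, all 15 lists overlapped.

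Of 12 tested ligands, 6 were higher in HT-Flx. Wnt7a held 1662, 1528, 1162, 1607 and 1442 in HT-Flx, against 747, 523, 672, 972 and 540 in WT-Flx. Wnt7b held 2934, 2473, 2255, 3862 and 1777 and 1139, 1115, 1011, 1125 and 1204. Both were apart in every library, about double in HT-Flx, at 1.13 (SE 0.16, adjusted p = 0.000103) and 1.20 (SE 0.17, adjusted p = 7.63e-05). Wnt5b held 110, 112, 90.6, 110 and 109 and 63.6, 81.4, 67.1, 82.5 and 81.9, and Wnt4, known for kidney and synapse development, 1128, 904, 845, 898 and 648 and 466, 581, 439, 426 and 666. Wnt3 held 389, 389, 421, 327 and 498 and 284, 168, 256, 355 and 225, and Wnt9a 768, 598, 681, 664 and 343 and 327, 444, 342, 299 and 413. Wnt5b was apart while the other 3 overlapped by 1 or more libraries, at log2 fold changes from 0.50 (Wnt5b) to 0.78 (Wnt4). The remaining 6 tested ligands did not pass, with log2 fold changes from −0.11 (Wnt5a) to 0.64 (Wnt11).

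Of the receptors, 7 were higher and 3 lower. Lrp5 held 1083, 1051, 839, 1034 and 834 in HT-Flx, against 611, 441, 510, 652 and 529 in WT-Flx. Fzd9 held 448, 377, 297, 426 and 321 and 241, 171, 177, 238 and 174, and Fzd2 994, 939, 792, 1143 and 845 and 531, 507, 441, 530 and 784. These receptors were apart, at 0.82 (SE 0.12, adjusted p = 0.000131), 0.90 (SE 0.15, adjusted p = 0.000279) and 0.77 (SE 0.15, adjusted p = 0.000698), although the highest WT-Flx library of Fzd2, replicate 5, came close to the lowest HT-Flx one. Fzd8 held 482, 474, 409, 472 and 373 and 310, 246, 285, 296 and 240, and Fzd10 154, 168, 116, 128 and 126 and 96.8, 95.3, 87.0, 81.6 and 72.7. Both were apart as well, at 0.68 and 0.66. Fzd1 held 1202, 1466, 1207, 1330 and 1887 and 1119, 645, 928, 1296 and 649, and Fzd7 662, 895, 666, 762 and 1051 and 565, 335, 609, 772 and 383, which overlapped, at 0.65 and 0.64. The Fzd7 call was lost without HT-Flx replicate 5 (0.54, adjusted p = 0.0515) or WT-Flx replicate 5 (0.54, adjusted p = 0.0526).

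The 3 lower receptors were Fzd3, Lrp6 and Fzd6. Fzd3 (40.3% GC) held 1282, 2029, 1378, 2679 and 1754 in HT-Flx, against 3304, 3473, 3459, 3023 and 3390 in WT-Flx, and Lrp6 (46.0% GC) 1269, 1617, 1565, 1999 and 1707 and 2054, 2334, 2529, 2702 and 2075. Fzd3 and Lrp6 were lower in every HT-Flx library, at −0.92 (SE 0.17, adjusted p = 0.000468) and −0.53 (SE 0.12, adjusted p = 0.00228). Fzd6 held 205, 217, 264, 211 and 252 and 275, 236, 279, 289 and 332, at −0.29 (adjusted p = 0.0455), a call lost without HT-Flx replicate 1, 2 or 4 or WT-Flx replicate 1, 3, 4 or 5 (adjusted p between 0.0713 and 0.117). Fzd4 and Fzd5 did not pass.

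In the cytoplasm, Dvl1, Dvl2 and Axin1 were higher and Apc and Ctnnb1 lower in HT-Flx. Dvl1 held 9781, 8388, 7470, 9568 and 7137 in HT-Flx, against 4653, 4524, 4443, 4986 and 4748 in WT-Flx. Axin1 held 1615, 1559, 1354, 1430 and 1346 and 1031, 967, 921, 995 and 934, and Dvl2 1271, 1038, 1110, 1122 and 1056 and 988, 921, 890, 851 and 942. Each was higher in every HT-Flx library, at 0.85 (SE 0.097, adjusted p = 3.71e-05), 0.59 (SE 0.081, adjusted p = 7.61e-05) and 0.28 (SE 0.083, adjusted p = 0.00955). Apc held 2584, 5307, 2546, 6448 and 5086 and 10404, 11524, 9669, 8379 and 8967. Ctnnb1 held 11594, 13486, 12732, 14496 and 14402 and 16016, 16190, 15470, 16166 and 16942. Both were lower in every HT-Flx library, Apc by 2.38-fold and Ctnnb1 by 1.21-fold, at −1.25 (SE 0.24, adjusted p = 0.000663) and −0.28 (SE 0.078, adjusted p = 0.00700). Dvl3 (0.05) and Gsk3b (−0.43 (adjusted p = 0.0571)) did not pass.

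Of the nuclear factors, Tcf7l1 alone passed, at 261, 260, 196, 284 and 250 in HT-Flx, against 159, 156, 142, 157 and 123 in WT-Flx, with groups apart and a log2 fold change of 0.76 (SE 0.13, adjusted p = 0.000256). Tcf7l2 held 772, 994, 742, 1163 and 1016 and 833, 894, 920, 966 and 882, and Lef1 344, 370, 305, 483 and 272 and 298, 337, 294, 305 and 268, at 0.04 (adjusted p = 0.786) and 0.22 (adjusted p = 0.204), with overlapping groups. Tcf7 was at 0.03. The 3 feedback targets were higher. Axin2 held 1640, 1488, 1266, 1216 and 1122 in HT-Flx, against 1094, 1168, 844, 921 and 977 in WT-Flx, Nkd1 1269, 1167, 960, 1224 and 760 and 710, 695, 576, 587 and 532, and Notum 287, 231, 227, 224 and 166 and 145, 180, 139, 123 and 166. Nkd1 was apart and Axin2 and Notum overlapped, at 0.78 (SE 0.14, adjusted p = 0.000514), 0.42 (SE 0.12, adjusted p = 0.00914) and 0.58 (SE 0.15, adjusted p = 0.00552).

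Among the secreted proteins, 2 inhibitors were higher and the 3 R-spondins lower. Sfrp5 held 582, 530, 391, 465 and 536 in HT-Flx, against 247, 193, 243, 296 and 240 in WT-Flx, and Sfrp2 125, 115, 106, 115 and 104 and 76.2, 72.2, 89.8, 94.9 and 76.6. Both were apart, at 1.03 (SE 0.14, adjusted p = 5.95e-05) and 0.46 (SE 0.13, adjusted p = 0.00660), while Dkk3, Sfrp1 and Wif1 did not pass. Rspo3 held 139, 187, 164, 218 and 216 and 270, 373, 233, 282 and 302, Rspo1 125, 105, 118, 101 and 86.5 and 165, 157, 151, 110 and 157, and Rspo2 242, 243, 288, 286 and 212 and 346, 408, 283, 292 and 313. Rspo3 was apart and the others overlapped, at −0.66 (SE 0.16, adjusted p = 0.00268), −0.46 (SE 0.15, adjusted p = 0.0155) and −0.37 (SE 0.13, adjusted p = 0.0254). The Rspo2 call was lost without HT-Flx replicate 2 or 5 or WT-Flx replicate 1 or 2 (adjusted p between 0.0512 and 0.0691).

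Correction of each library for GC content and length changed this picture. After it, 18 members passed, 9 higher and 9 lower, beside 6398 of 17799 genes. The 18 included members that had turned direction or had not passed before. Only 8 of the 30 kept both call and direction. These were Wnt7a (0.60 (adjusted p = 0.00839)), Wnt7b (0.45 (adjusted p = 0.00728)), Fzd8 (0.54 (adjusted p = 0.00197)), Nkd1 (0.35 (adjusted p = 0.0469)) and Sfrp5 (0.37 (adjusted p = 0.0389)), higher, and Ctnnb1 (−0.40 (adjusted p = 0.000892)), Apc (−0.58 (adjusted p = 0.00637)) and Rspo1 (−1.13 (adjusted p = 0.000202)), lower. Dvl1 went from 0.85 to 0.10, Lrp5 from 0.82 to 0.07, Axin2 from 0.42 to −0.14, and Fzd3 from −0.92 to 0.18, with Axin2 and Fzd3 turning direction. Rspo1, with a GC content of 59.7%, moved the other way, from −0.46 to −1.13. With replicate number also in the fit, 7 of the 30 kept call and direction, and Sfrp5 did not.

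**Figure D4:**
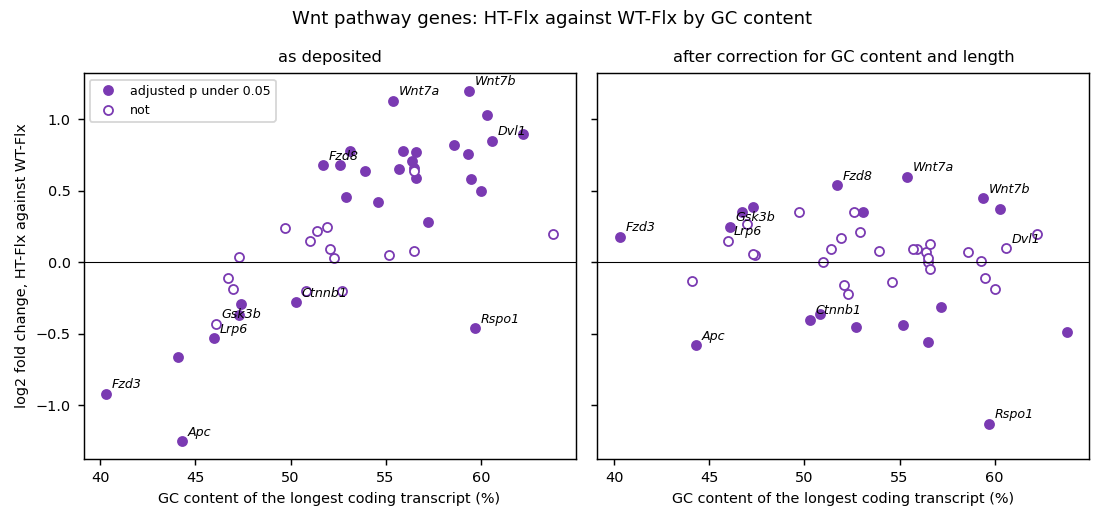
Log2 fold changes of the 46 tested members between HT-Flx and WT-Flx against transcript GC content, as deposited (left) and after the per-library correction for GC content and length (right), with filled points for an adjusted p under 0.05. On the left, values rise from −0.92 for Fzd3 and −1.25 for Apc at low GC to 1.20 for Wnt7b at high GC, with Rspo1 at −0.46 apart from the rest, and on the right no such rise is seen and Rspo1 is at −1.13.

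The genotype by fluoxetine term over the 20 P120 libraries asks whether the genotype difference was unlike in treated and vehicle mice. It passed for 11 of 46 members (23.9%), beside 4852 of 17796 genes (27.3%, with 15.8% positive and 11.5% negative), and 20 members had an unadjusted p under 0.05, beside 8053 genes (45.3%). The term was positive for 10, namely Wnt7b (1.00), Wnt7a (0.98), Fzd9 (0.77), Dvl1 (0.76), Tcf7l1 (0.76), Nkd1 (0.73), Fzd10 (0.70), Lrp5 (0.70), Fzd8 (0.54) and Axin1 (0.47), and Fzd3 was negative (−0.77). Their adjusted p-values lay between 0.0347 and 0.0498. For Wnt7b and Dvl1 the WT-Flx libraries were below and most HT-Flx libraries above the vehicle range of WT.

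The 11 calls were lost when the 2 libraries that go against their labels were left out, although the differences were about as large. They ran from 0.49 (Axin1) to 1.00 (Wnt7b) for the 10 positive members and stood at −0.83 for Fzd3, with adjusted p-values from 0.0576 to 0.0870. There were then 0 members and 0 genes at an adjusted p under 0.05, and 18 members and 7312 genes at an unadjusted p under 0.05. Leaving out WT-Veh replicate 2 alone also gave 0 and 0, as did leaving out HT-Flx replicate 1, WT-Flx replicate 2 or 3, HT-Veh replicate 4 or 5, or WT-Veh replicate 3 or 4. After the correction for GC content and length, 0 members and 0 genes passed in limma, with 11 members and 3773 genes at an unadjusted p under 0.05, and Axin1 and Fzd3 turned direction (−0.09 and 0.20). Ctnnb1 (−0.24 (adjusted p = 0.164)), Axin2 (0.43 (adjusted p = 0.0822)), Lef1 (0.35 (adjusted p = 0.166)) and Tcf7l2 (0.06 (adjusted p = 0.825)) did not pass.

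A wider list of 78 further pathway genes (ligands, export factors, co-receptors, inhibitors, cytoplasmic and nuclear components, planar polarity genes and targets) had 74 genes in the table, and Wnt3a, Wnt8a, Dkk1 and Dkk4 were not analysed here. With age, 18 of 72 tested were higher and 32 lower in WT (69.4% called, beside 58.3% of all genes), and 17 and 27 in HT (61.1%, beside 51.1%). Draxin, an axon guidance protein that antagonizes Wnt, fell most, from 799 ± 111 (SD, n = 5) at P10 to 28.9 ± 11.3 in WT-Veh and from 633 ± 108 to 33.2 ± 5.70 in HT, at −4.81 (adjusted p = 3.56e-09) and −4.21 (adjusted p = 3.19e-09). Myc, a growth-promoting target, fell by −1.74 and −1.86, and the target Sp5 by −1.74 in WT. The ligand Wnt6 rose by 1.25 and 1.82.

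Among the other genes named by the rule, Kremen2, a Dkk receptor, was higher in WT at 1.34, as was Daam2, a formin-family partner of Dishevelled, at 1.07. In HT, Sost rose by 2.16 from a level of 3.92 ± 4.02, Dact3 by 0.97, and Dkk2 fell by 2.01 on the log2 scale. The starting level of Sost lay under the minimum mean for testing. Sost was therefore tested only because its level at the later age was higher, so its selection favoured a rise. Of the 6 further beta-catenin targets, 5 were tested, and 4 were lower with age in each genotype with 1 higher in HT. Of the 19 further cytoplasmic genes, 12 were lower and 6 higher in WT.

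Between HT-Flx and WT-Flx, 34 of 72 were higher and 16 lower (69.4%, beside 63.7% of all genes), and after the correction 15 were higher and 9 lower. Apc2, the neuronal Apc homologue, was at 1.18 (adjusted p = 3.28e-05) and opposite in sign to Apc. Sp5 (1.13) and Dact3 (1.12) were higher, and the kinase Tnik (−1.08) and the tankyrases Tnks2 (−1.07) and Tnks (−0.97), which mark Axin for degradation, were lower. After the correction these were 0.45, 0.44, 0.37, −0.41, −0.40 and −0.51, and Sp5 no longer passed. The genotype by fluoxetine term called 26 of 71 (36.6%, beside 27.3% of all genes), 22 positive and 4 negative, led by Apc2 (1.03), Dact3 (1.01) and Pygo2 (0.99) and by Tnks2 (−0.93), Tnik (−0.90) and Tspan12 (−0.78). After the correction these 6 were at 0.42, 0.37, 0.44, −0.39, −0.36 and 0.01 in turn, with adjusted p-values from 0.131 to 0.987. No gene of the wider list was called after the correction or without the 2 libraries that go against their labels. No gene of the wider list passed in the other 5 comparisons, and those at an unadjusted p under 0.05 were 12.7% at P10 (beside 12.6% of all genes), 1.41% between the vehicle groups (beside 1.29%), 30.6% for fluoxetine in HT (beside 23.1%), 31.0% for fluoxetine in WT (beside 25.2%) and 2.78% for genotype by age (beside 3.40%). After the correction, the fluoxetine shares were 15.3% and 9.86%.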

How the data were processed

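The 30 whole-brain libraries (6 groups of 5) were analysed. Per the labels and the methods, the authors quantified reads with Salmon 1.1.0 with GC bias correction on GRCm38, summarised them with tximport, and deposited a table of DESeq2 1.30.1 normalized counts. These deposited values are a normalized signal, not whole counts, and reads could not be recovered, so no count test was run. The labels name R 4.1.1. The values were analysed as log2(value + 1) with limma 3.58.1 (R 4.3.3, empirical Bayes with an intensity trend), keeping genes with a mean of at least 10 over the libraries compared, with Benjamini-Hochberg adjustment over all genes and a threshold of 0.05. Exact two-sided permutation tests were used for single genes. GC content is that of the longest coding transcript (GENCODE), and the correction, added after the data were seen, subtracts each library's mean deviation within 10 by 10 bins of GC content and length. The members, the wider list and the markers were chosen with earlier results of these data known. Named genes were all members called within an age, the members called in both age comparisons with groups apart and a log2 fold change of at least 1 in WT, Ctnnb1, Axin2, Lef1, Tcf7l2 and Arid1b, and up to 3 genes of the wider list in each direction. The scripts were tested on simulated data. Nothing says that mice of a group came from separate litters, so p-values measure the spread between these mice.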

Additional observations from a re-analysis of the deposited data

Results flagged for a closer look

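In 13 of 282 gene and group combinations (4.61%), 1 library lay far from the other 4 by Dixon's criterion, which chance passes in about 1 in 20. At P10 these were Wnt3 in WT replicate 5 (227), Fzd4 in WT replicate 5 (490), Ctnnb1 in WT replicate 4 (22857), Wnt5a in HT replicate 2 (574), Rspo3 in HT replicate 4 (210) and Dvl1 in HT replicate 1 (2829). At P120 they were Fzd3 in WT-Veh replicate 3 (1915), Fzd8 (371) and Fzd10 (131) in WT-Veh replicate 4, Fzd2 in WT-Flx replicate 5 (784), Rspo1 in WT-Flx replicate 4 (110), Wnt2b in HT-Flx replicate 4 (183) and Wnt5b in HT-Flx replicate 3 (90.6).

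The genotype difference was unlike in fluoxetine and vehicle mice, by the interaction term, for 11 of 46 members (23.9%, beside 27.3% of all genes), with log2 differences of 0.98 for Wnt7a, 1.00 for Wnt7b, −0.77 for Fzd3, 0.54 for Fzd8, 0.77 for Fzd9, 0.70 for Fzd10, 0.70 for Lrp5, 0.76 for Dvl1, 0.47 for Axin1, 0.76 for Tcf7l1 and 0.73 for Nkd1. All 11 calls were lost without both libraries that go against their labels, at differences of about the same size (adjusted p between 0.0576 and 0.0870), and after the correction for GC content and transcript length.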

How the results depend on the processing

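Read depth is unknown, so precision rests on 5 mice a group. With a pseudocount of 5, no filter, a minimum mean of 100 (with fewer members tested), median-of-ratios rescaling, no intensity trend or a single fit over the P120 libraries, no called member turned direction, and the age comparisons and HT-Flx against WT-Flx lost at most 2 member calls each.

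After the correction for GC content and length, 18 members and 6398 genes passed between HT-Flx and WT-Flx, and 15 members and 5236 genes with the replicate block added. Of the 30 calls as deposited, 8 kept call and direction after the correction, and 7 with the block, where Sfrp5 was lost. Under both, Wnt5b (−0.19), Fzd3 (0.18), Fzd6 (0.05), Lrp6 (0.15), Dvl2 (−0.31), Axin1 (−0.05), Axin2 (−0.14), Notum (−0.11) and Rspo2 (0.06) turned direction. In the genotype by fluoxetine term the correction, alone or with the block, left 0 members and 0 genes and turned Fzd3 (0.20) and Axin1 (−0.09). That term gave 6 members without an intensity trend and 0 members and 0 genes without both libraries that go against their labels.

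Replicate numbers are shared between groups, and whether they pair the samples was not settled. No comparison had every same-number correlation above 0.1 (mean 0.179, lowest −0.0177 for HT-Flx against HT-Veh, where 5 of 10 libraries matched their own number best). At P10, 7 of 10 libraries did so, at a mean correlation of 0.0429 for same numbers and −0.0105 for others. Between HT-Flx and WT-Flx, 0 of 10 did. The main fits were unpaired, and the replicate block is an alternative. With the replicate block, the calls at P10 went from 4 to 7 genes (8 with the correction), and those between HT-Flx and HT-Veh from 0 to 1355 genes with 2 members, Apc (−0.58) and Fzd3 (−0.51), or to 2 genes with the correction added. Genotype by fluoxetine had 14 members and 5542 genes with the block, and elsewhere the block without the correction lost at most 2 member calls a comparison and turned none. Without an intensity trend, genotype by age called 2 genes.

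With single libraries left out, the genes called ranged from 3 to 8 at P10 (8 without HT replicate 1), from 0 to 1 between the vehicle groups (1 without HT-Veh or WT-Veh replicate 3), from 0 to 1 for fluoxetine in HT (1 without HT-Flx replicate 2 or HT-Veh replicate 3), and from 0 to 1400 with 0 to 4 members for fluoxetine in WT. The genotype by fluoxetine term ranged from 0 to 19 members and from 0 to 7667 genes, with 0 of each without HT-Flx replicate 1, WT-Flx replicate 2 or 3, HT-Veh replicate 4 or 5, or WT-Veh replicate 2, 3 or 4, and the highest counts without HT-Veh replicate 1. Member calls kept within 28 to 30 between HT-Flx and WT-Flx, 29 to 33 for age in WT and 27 to 31 for age in HT. The cause of these changes was not tested.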
